A study of Mus musculus with 8 samples.

Results

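The 10 genes described here encode phospholipase C (PLC) isoforms of the mouse: Plcb1, Plcb2, Plcb3 and Plcb4 of the beta class, Plcd1, Plcd3 and Plcd4 of the delta class, Plcg1 and Plcg2 of the gamma class, and Plce1, the epsilon isoform. They were taken by gene symbol, and all 10 were found among the 24060 gene rows of each library. The data are RNA-seq of cerebral cortex from 4 young adult mice at about postnatal day 80. All 4 were hemizygous for Aldh1l1-creERT2, a tamoxifen-inducible Cre recombinase under Aldh1l1 control, and heterozygous for Ribotag, a Cre-dependent allele that puts a hemagglutinin (HA) tag on the ribosomal protein Rpl22. Each animal gave a pair of libraries: HA IP, the RNA that came down with tagged ribosomes, and input, the RNA of the same cortex before precipitation. There were thus 4 HA IP and 4 input libraries, named by the animal numbers 579, 580, 581 and 595. Both sexes were used, and the labels do not say which animal was which. The input holds RNA of all cortical cells, astrocytes included, and an HA IP from animals without Cre was not analysed here.

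Phospholipase C enzymes cut the membrane lipid phosphatidylinositol bisphosphate (PIP2) into inositol trisphosphate (IP3), which opens calcium channels of the endoplasmic reticulum, and diacylglycerol, which recruits protein kinase C and other effectors. The classes differ in what turns them on. Beta isoforms answer to Gq-class G proteins and G protein beta-gamma subunits, gamma isoforms to tyrosine kinases, epsilon to Ras family and other small GTPases, and delta isoforms are highly sensitive to calcium itself. In astrocytes the route from Gq-coupled receptors through PLC to the type 2 IP3 receptor is a well-studied source of calcium signals.

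Values are FPKM (fragments per kilobase of gene length, scaled to the size of the library) as deposited, and fold changes are log2 ratios of HA IP to input from limma on log2(FPKM + 0.1) after trimmed mean of M-values (TMM) scaling, with 0.05 as the threshold for the adjusted p. TMM scaling moved ratios of HA IP to input up by 0.84 on the log2 scale, before the pseudocount. The pseudocount of 0.1 FPKM shrinks the ratios of genes whose values lie near or below it. Over all 15605 genes tested, log2 fold changes had a median of 0.01 with this scaling and -0.75 on the deposited scale. Totals recovered from the steps of the values were 33834388 to 45671386 fragments per HA IP library and 35411626 to 53625125 per input library. The labelled source was checked with markers. All 8 astrocyte markers rose in HA IP, with a summed level of 3806 to 4257 FPKM in HA IP libraries, against 452 to 468 FPKM in input. All 6 excitatory neuron, 6 inhibitory neuron, 8 microglia, 7 oligodendrocyte, 4 oligodendrocyte precursor and 5 endothelial markers fell, and of 6 mural cell markers 2 rose, 3 fell and 1 did not pass.

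The isoforms divided between the groups (limma, adjusted p under 0.05). Plcb3, Plcd4, Plcd1, Plce1, Plcg2 and Plcg1 were higher in HA IP, Plcb4, Plcb2 and Plcb1 were lower, and Plcd3 did not pass. All 10 genes passed the filter on low values, so 6 of 10 were higher, against 42.1% of all genes tested, and 3 of 10 were lower, against 41.2% (83.3% of all genes passed in either direction). On the deposited scale 5 were higher, against 23.3% of all genes, and 5 were lower, against 61.6% (84.9% in either direction); Plcg1 was lower there and Plcd3 passed as lower. The groups did not overlap after TMM scaling for 9 of the 10 genes, against 78.6% of all genes tested (40.1% with HA IP above and 38.5% with HA IP below). The median log2 fold change of the 10 was 0.83. Both libraries of an animal come from the same cortex, and the number of cells of a type and their RNA per cell cannot be told apart in such bulk libraries.

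**Figure D1:**
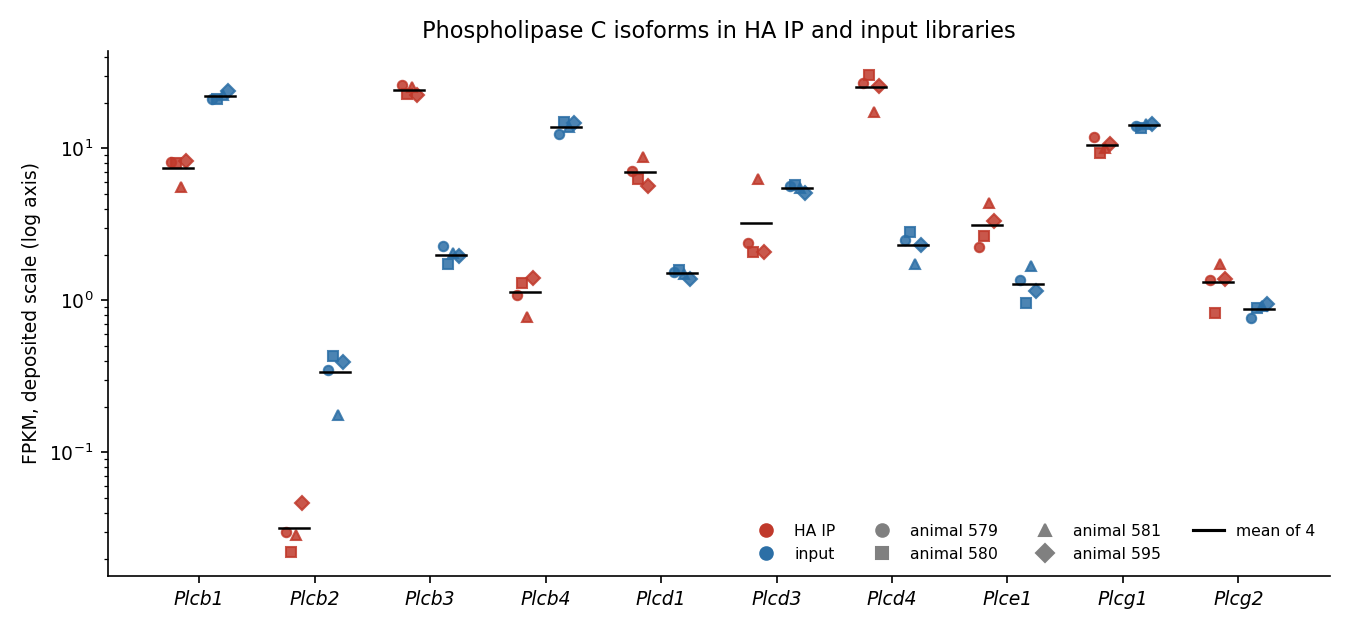
FPKM on the deposited scale (log axis) of each isoform in the 4 HA IP libraries (red, left) and the 4 input libraries (blue, right), with a marker shape for each animal and a line at the mean of 4. Plcb3 and Plcd4 stand far higher in HA IP, Plcb4 and Plcb2 far higher in input, and in Plcd3 the library of animal 581 stands apart from the other HA IP libraries.

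The sequences just before a start of 4 of the genes are shown because their shares of the family differ most between the groups: Plcb3 and Plcd4, with the largest rises, and Plcb4 and Plcb1, which fell and stood high in input. Each is the 250 bases before a transcription start given by RefSeq (GRCm38.p6, the same assembly as mm10), 5′ to 3′ on the strand of the gene. Capitals mark matches on either strand to 4 motifs, spelled out after the sequences. Plcb3 lies on chromosome 19 on the minus strand, and its window is chr19:6969815-6970064. Plcd4 lies on chromosome 1 on the plus strand, with the first of its windows at chr1:74542639-74542888. Plcb4 lies on chromosome 2 on the plus strand, with the first of its windows at chr2:135659297-135659546. Plcb1 also lies on chromosome 2 on the plus strand, and its window is chr2:134785914-134786163. The Plcb1 window ends where the annotated span of the gene (chr2:134786164-135475258) begins. The other windows shown lie inside the spans of their genes, which are chr19:6953708-6975006 for Plcb3, chr1:74541975-74565977 for Plcd4 and chr2:135658603-136014602 for Plcb4, so RefSeq also has transcripts of these genes that reach further upstream.
Plcb3: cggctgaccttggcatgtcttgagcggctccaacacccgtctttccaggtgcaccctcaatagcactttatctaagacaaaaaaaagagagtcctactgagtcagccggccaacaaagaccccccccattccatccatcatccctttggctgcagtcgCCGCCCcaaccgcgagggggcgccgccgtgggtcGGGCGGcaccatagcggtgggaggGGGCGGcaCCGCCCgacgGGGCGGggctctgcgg
Plcd4: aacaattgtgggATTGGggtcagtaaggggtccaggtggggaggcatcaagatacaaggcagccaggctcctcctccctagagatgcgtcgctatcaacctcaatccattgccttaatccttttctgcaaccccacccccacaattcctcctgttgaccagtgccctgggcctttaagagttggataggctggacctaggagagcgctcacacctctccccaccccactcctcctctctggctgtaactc
Plcb4: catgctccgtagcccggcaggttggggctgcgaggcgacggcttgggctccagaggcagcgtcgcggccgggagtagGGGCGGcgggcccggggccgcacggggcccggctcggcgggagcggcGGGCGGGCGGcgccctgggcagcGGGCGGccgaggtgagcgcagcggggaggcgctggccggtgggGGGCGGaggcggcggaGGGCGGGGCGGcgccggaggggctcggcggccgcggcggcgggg
Plcb1: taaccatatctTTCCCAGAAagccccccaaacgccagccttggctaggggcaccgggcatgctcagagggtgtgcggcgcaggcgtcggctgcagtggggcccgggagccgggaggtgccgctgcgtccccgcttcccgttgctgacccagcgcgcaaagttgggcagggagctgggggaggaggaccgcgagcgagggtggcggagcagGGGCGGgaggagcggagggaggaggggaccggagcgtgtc
The GC box, GGGCGG, had 5 matches in the Plcb3 window, none in the Plcd4 window, 7 in the Plcb4 window (some overlapping) and 1 in the Plcb1 window, and it was present in 32.7% of all 32851 windows of this length. The CCAAT box, CCAAT, had 1 match in the Plcd4 window, none in the other sequences shown, and was present in 33.8% of all windows. A STAT-type motif, TTCNNNGAA, had 1 match, in the Plcb1 window, and was present in 7.02% of all windows. The TATA box, TATAAA, had no match in the 4 sequences and was present in 12.4% of all windows. CpG dinucleotides numbered 20 in the Plcb3 window and 3 in the Plcd4 window, against 42 for Plcb4, 22 for Plcb1 and a median of 6 over all windows. The second Plcb4 window, not printed, had no GC box and 3 CpG, and the second Plcd4 window had no GC box and 3 CpG as well. A match is a stretch of letters and not evidence of a bound site.

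Among the beta isoforms, the enzymes that receptors reach through Gq, Plcb3 was the one that rose. Plcb3 had 26.0, 22.7, 25.3 and 22.5 FPKM in the HA IP libraries of animals 579, 580, 581 and 595, against 2.28, 1.72, 2.04 and 1.95 FPKM in their input libraries. Every HA IP library was above every input library, by a wide margin. The log2 fold change was 4.35 (SE 0.10), equal to 20.4-fold (limma, adjusted p = 3.2e-10), with 4.22 to 4.51 in the 4 animals. This placed Plcb3 92nd from the top of the 15605 genes tested. Its ratio was also among the most even: the per-animal values spanned less than those of any other isoform except Plcd4.

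Plcb1, a beta isoform known for its high level in neurons of the forebrain, had 8.12, 7.97, 5.54 and 8.23 FPKM in HA IP, against 21.0, 21.0, 22.3 and 24.0 FPKM in input (animals in the same order). Input was higher in every animal, and the lowest HA IP value, in animal 581, stood apart from the other HA IP values. The log2 fold change was -0.74 (SE 0.14; limma, adjusted p = 5.4e-04), and -1.57 on the deposited scale. At 7.46 ± 1.29 FPKM (SD, n = 4) Plcb1 still stood next after Plcd4, Plcb3 and Plcg1 in HA IP.

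Plcb4, the beta isoform best known from cerebellum and thalamus, had 1.08, 1.31, 0.773 and 1.40 FPKM in HA IP, against 12.5, 14.8, 13.8 and 14.6 FPKM in input. It fell by 2.72 on the log2 scale (SE 0.17; limma, adjusted p = 1.7e-07), the largest fall among the 10, and lay 1020th from the bottom of all genes tested. Plcb2, an isoform of blood cells, was near the floor, with 0.0302, 0.0222, 0.0285 and 0.0466 FPKM in HA IP, against 0.351, 0.434, 0.176 and 0.395 FPKM in input. The HA IP values rest on only 10 to 16 fragments per library, against 66 to 215 in input. Plcb2 changed by -1.28 (SE 0.20; limma, adjusted p = 1.7e-04). The pseudocount shrinks this value, which was -2.29 when fitted on CPM of the recovered fragments.

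The 3 delta isoforms behaved differently from one another. Plcd4, known from sperm for its part in the acrosome reaction, had 27.1, 30.6, 17.5 and 25.9 FPKM in HA IP, against 2.48, 2.81, 1.73 and 2.30 FPKM in input. The groups lay far apart, and animal 581 was lowest and animal 580 highest in both. The log2 fold change was 4.19 (SE 0.20), equal to 18.3-fold (limma, adjusted p = 1.9e-08), the 123rd largest of all genes tested. The log2 ratios within animals kept to 4.05 to 4.27.

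Plcd1, the delta isoform whose structure and calcium dependence are best known, had 7.14, 6.27, 8.82 and 5.64 FPKM in HA IP, against 1.55, 1.59, 1.503 and 1.39 FPKM in input. All HA IP libraries exceeded all inputs. Plcd1 rose by 2.92 (SE 0.14; limma, adjusted p = 2.0e-08), or 7.59-fold, with 2.68 to 3.26 in the 4 animals.

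Plcd3 gave no call. It had 2.39, 2.07, 6.33 and 2.08 FPKM in HA IP, against 5.66, 5.78, 5.46 and 5.11 FPKM in input. In animals 579, 580 and 595 HA IP was below input, with log2 ratios of -0.36, -0.57 and -0.50 after TMM scaling, whereas in animal 581 it was above, with 1.013. The fitted value was -0.11 (SE 0.30; limma, adjusted p = 0.76). Without the HA IP library of animal 581 it was -0.47 (SE 0.10; limma, adjusted p = 0.0017), and without both libraries of that animal -0.48 (limma, adjusted p = 0.0040).

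Of the gamma isoforms, which tyrosine kinases phosphorylate, Plcg1 is found in most tissues and Plcg2 mainly in blood cells and, in brain, in microglia. Plcg1 had 11.9, 9.40, 10.01 and 10.7 FPKM in HA IP, against 14.1, 13.6, 14.5 and 14.5 FPKM in input. On this deposited scale every HA IP library was below every input, and after TMM scaling every one was above. The log2 fold change was therefore 0.40 (SE 0.08; limma, adjusted p = 0.0013) with TMM scaling and -0.43 (limma, adjusted p = 6.3e-04) without it. Since the median of all genes moves with the scaling too, Plcg1 stayed close to that median, at the 59.8th percentile of all log2 fold changes.

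Plcg2 had 1.36, 0.830, 1.75 and 1.38 FPKM in HA IP, against 0.771, 0.887, 0.914 and 0.949 FPKM in input. HA IP exceeded input in 3 of 4 animals on the deposited scale, the exception being animal 580, and in all 4 after TMM scaling. Plcg2 rose by 1.27 (SE 0.19; limma, adjusted p = 1.5e-04), and by 0.50 on the deposited scale (limma, adjusted p = 0.038). The 8 microglia markers all fell, Csf1r by the most at -3.45 (SE 0.13), with a summed level of 24.0 to 32.3 FPKM in HA IP, against 144 to 157 FPKM in input, and none was at 0 in HA IP. Genes that act with Plcg2 in microglia and other immune cells fell too: the adaptor gene Tyrobp changed by -3.86 (SE 0.20), the receptor gene Trem2 by -2.66 (SE 0.15), the kinase genes Btk by -1.13 (SE 0.25) and Syk by -0.81 (SE 0.19), and the adaptor gene Blnk by -2.75 (SE 0.41). Plcg2 went the other way from these genes, and the part of microglial RNA in its values was not tested. Btk and Syk had 0.0648 and 0.119 FPKM on average in HA IP, against 0.381 and 0.454 FPKM in input. At such levels the pseudocount shrinks the fold change.

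Plce1, a large isoform that is itself an exchange factor for Rap GTPases, had 2.26, 2.66, 4.397 and 3.32 FPKM in HA IP, against 1.36, 0.965, 1.67 and 1.16 FPKM in input. The groups did not overlap, and animal 581 was highest in both. Plce1 rose by 2.01 (SE 0.21; limma, adjusted p = 9.3e-06), or 4.02-fold.

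**Figure D2:**
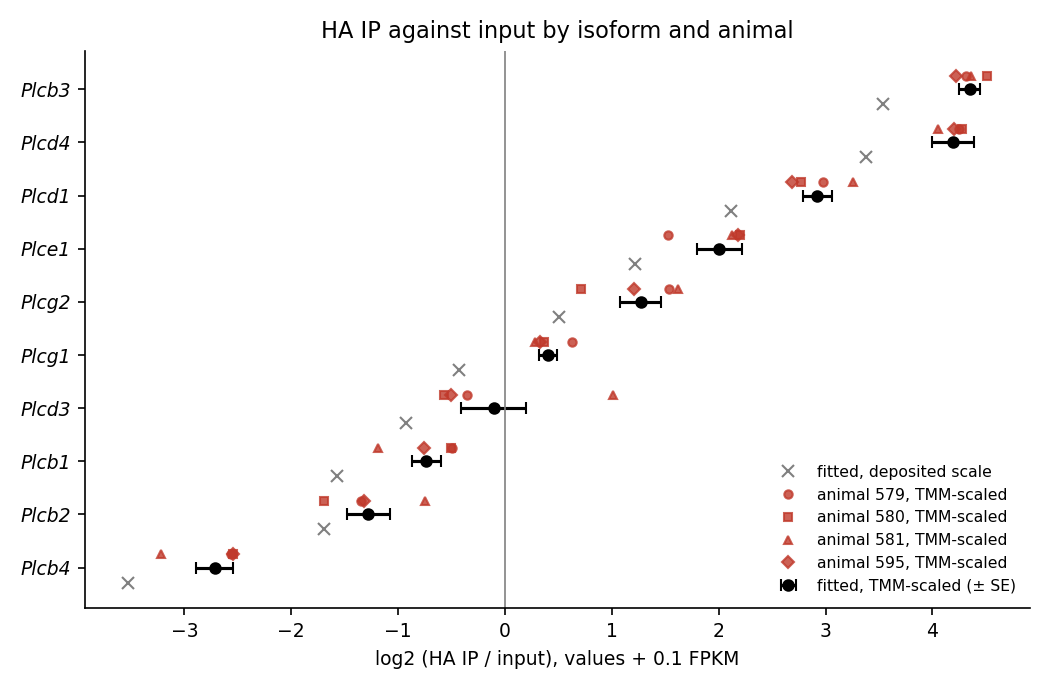
Log2 ratio of HA IP to input for each isoform, from the largest rise at the top to the largest fall. Black points give the fitted value with its SE after TMM scaling, red symbols the ratio within each animal and grey crosses the fit on the deposited scale, which lies lower for every isoform and on the other side of 0 for Plcg1.

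Between isoforms, FPKM can be set side by side only as far as the length behind them holds. The lengths implied by the values ran from 3016 bases for Plcd3 to 14049 bases for Plcb1, all shorter than the genes' genomic spans, and whether a length adds up several transcripts is not given in the sources used here. On the FPKM scale the order of mean levels in HA IP was Plcd4, Plcb3, Plcg1, Plcb1, Plcd1, Plcd3, Plce1, Plcg2, Plcb4 and Plcb2. The ranges of these neighbours overlapped between Plcd4 and Plcb3, Plcb1 and Plcd1, Plcd1 and Plcd3, Plcd3 and Plce1, and Plcg2 and Plcb4. In input the order was Plcb1, Plcg1, Plcb4, Plcd3, Plcd4, Plcb3, Plcd1, Plce1, Plcg2 and Plcb2, with overlap between Plcg1 and Plcb4, Plcd4 and Plcb3, and Plcd1 and Plce1. Plcb1 led in input and Plcb2 was last in both.

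The make-up of the family differed accordingly. The summed FPKM of the 10 genes was 83.2 ± 3.16 in HA IP and 64.0 ± 1.79 in input (SD, n = 4 each). Plcd4 made up 30.3 ± 6.18% of that sum in HA IP and 3.65 ± 0.739% in input, and Plcb3 made up 29.0 ± 1.98% in HA IP and 3.12 ± 0.410% in input. Plcb1 made up 8.95 ± 1.42% in HA IP and 34.5 ± 1.33% in input, and Plcb4 1.37 ± 0.339% in HA IP and 21.7 ± 1.32% in input. The delta class as a whole held 42.6 ± 2.62% in HA IP and 14.6 ± 1.40% in input. By fragments, a scale that does not divide by length, Plcb3 led in HA IP with 33.8 ± 2.55% and Plcd4 followed with 23.7 ± 4.71%, while Plcb1 held 61.8 ± 1.41% in input. Which of Plcb3 and Plcd4 came first in HA IP thus depended on the lengths.

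**Figure D3:**
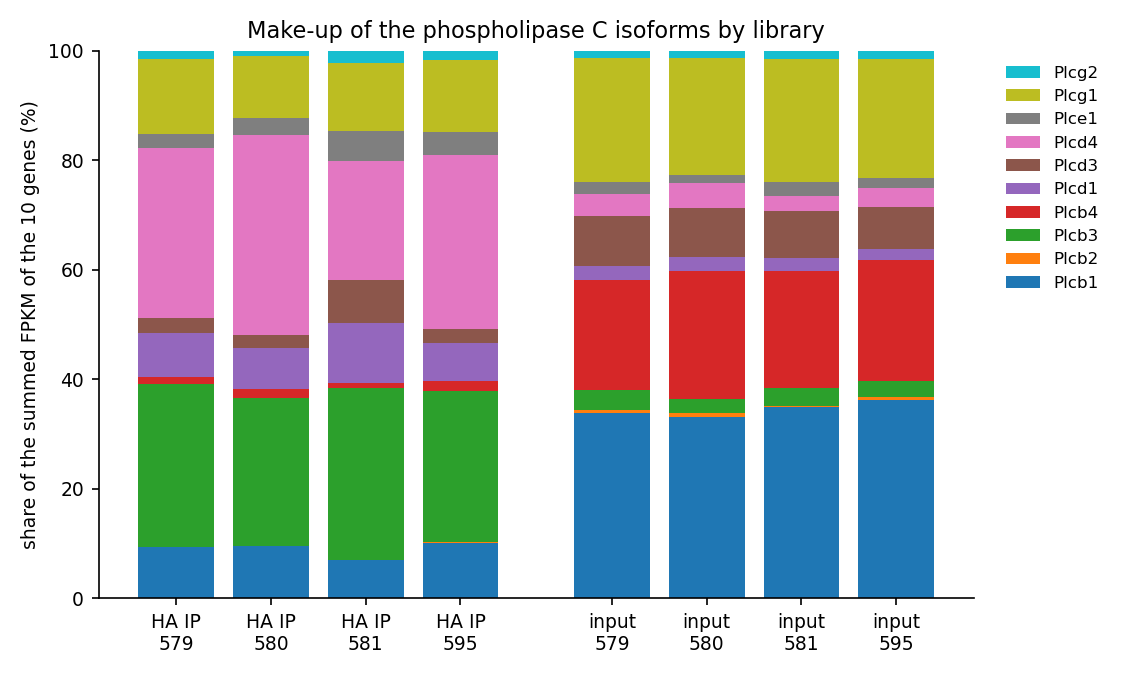
Share of each isoform in the summed FPKM of the 10 genes, in percent, for each HA IP library (left) and each input library (right). Plcb3 (green) and Plcd4 (pink) are the largest parts of each HA IP bar, and Plcb1 (blue), Plcb4 (red) and Plcg1 (olive) the largest parts of each input bar.

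The HA IP library of animal 581 was the one farthest from the rest of its group for Plcd3, Plcd4, Plcb4 and Plcb1. It was also farthest for Plce1 and Plcd1, by a smaller lead. Set against the mean of the other 3 HA IP libraries on the log2 scale, it was higher by 1.47 for Plcd3, and its values for Plcd4, Plcb4 and Plcb1 were -0.71, -0.69 and -0.58. Plce1, Plcg2 and Plcd1 varied among several libraries. Plce1 was at 0.64 in animal 581 and -0.54 in animal 579, and Plcg2 at 0.53 in animal 581 and -0.73 in animal 580. Plcd1 was at 0.44 in animal 581 and -0.42 in animal 595. The input of animal 581 differed from the other inputs by -0.52 for Plcd4 and 0.49 for Plce1, in the same direction as its HA IP. It differed by only -0.02 for Plcd3, -0.02 for Plcb4 and 0.01 for Plcb1. Its largest difference in input was -0.77, for Plcb2. Gfap, the intermediate filament gene that marks astrocytes and their reactive state, was also high in that animal, with 449, 310, 1076 and 357 FPKM in HA IP, against 26.8, 21.3, 66.1 and 24.9 FPKM in input (animals in the order above). Gfap in animal 581 was above the other animals by 1.51 in HA IP and 1.43 in input on the log2 scale. The other astrocyte markers differed less, from -0.59 for Gjb6 to 0.25 for Sox9 in HA IP. Markers of other cell types moved in that HA IP library, and in other HA IP libraries as well. In the HA IP library of animal 595 the excitatory neuron markers had a median difference of 0.44, with 5 of 6 above 0. The microglia markers had one of 0.40 there, with 6 of 8 above 0. The mural gene Acta2 was at 1.86 there, but the 6 mural markers had a median of 0.002, with 3 above 0. The endothelial markers had a median of 0.54 in the HA IP library of animal 579. In that of animal 581 the inhibitory neuron markers had a median difference of 0.48, with 5 of 6 above 0. The microglia markers had one of -0.18 in animal 581, with 1 of 8 above 0. C1ql1, an oligodendrocyte precursor marker, was at 1.53 in HA IP and -0.05 in input of animal 581. The median of the 4 markers of that type in its HA IP was -0.32. The myelin gene Mog was at -1.09 in the HA IP library of animal 581, where the 7 oligodendrocyte markers had a median of -0.06, with 2 above 0. The endothelial genes Flt1 and Cldn5 were at -0.97 and 0.83 in that library. S1pr3, a sphingosine phosphate receptor gene that did not pass, had 0.318, 0.302, 7.42 and 0.290 FPKM in HA IP, against 2.56, 2.41, 2.77 and 2.25 FPKM in input. The part of these differences in the isoforms' values was not tested. Acbd4, a gene whose span overlaps that of Plcd3, had 11.3, 12.4, 15.4 and 11.9 FPKM in HA IP, against 13.3, 12.2, 11.7 and 12.3 FPKM in input. Its HA IP value was highest in animal 581 too, by a smaller margin than that of Plcd3.

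**Figure D4:**
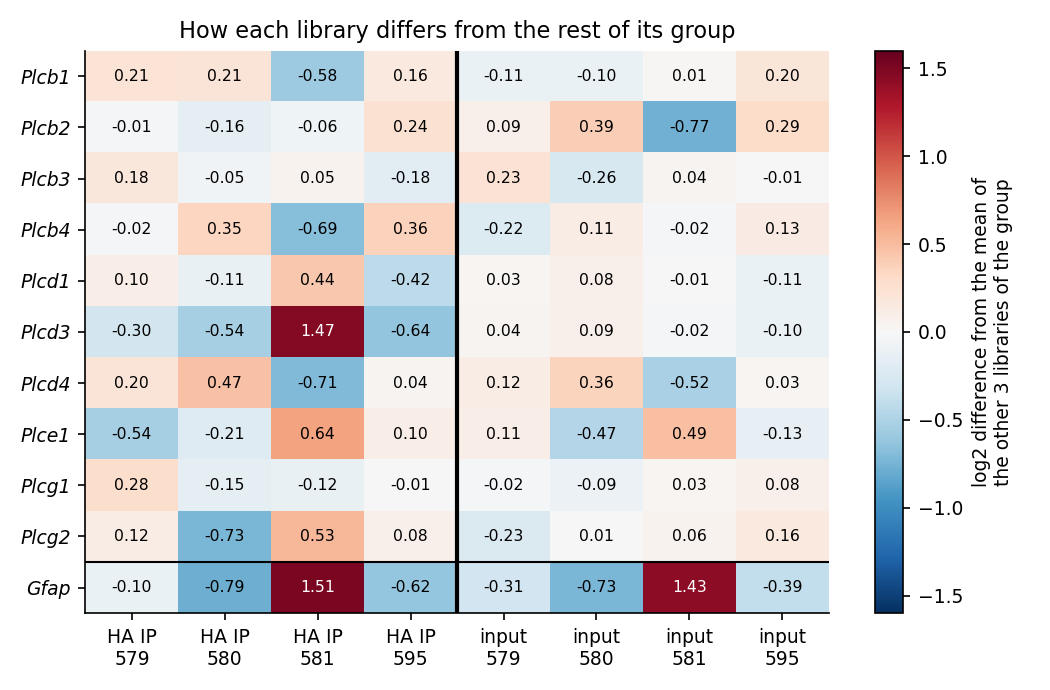
Log2 difference of each library from the mean of the other 3 libraries of its group, after TMM scaling, for the 10 isoforms and Gfap, with HA IP on the left and input on the right. The largest differences are in the HA IP library of animal 581, 1.47 for Plcd3 among the isoforms and 1.51 for Gfap, while for Plcg2 the library of animal 580 lies farthest out, at -0.73.

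The spans of other genes with values overlap some isoforms, and the strand setting of the counting is not given in the sources used here. Usp37, which overlaps Plcd4, had 2.14 FPKM on average in HA IP and 4.29 FPKM in input, with a log2 fold change of -0.16 (SE 0.09) where that of Plcd4 was 4.19. Zhx3, which overlaps Plcg1, changed by 0.62 (SE 0.12) where Plcg1 changed by 0.40.

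The genes whose pattern over the 8 libraries lay closest to that of Plcb3, the largest rise, were Slc9a3r1, Oplah and Hadh, by Euclidean distances of 0.25, 0.26 and 0.28 between log2 values centred on each gene's mean. Slc9a3r1, which encodes a scaffold protein with PDZ domains, had 299 ± 32.3 FPKM in HA IP, against 23.9 ± 2.23 FPKM in input (SD, n = 4 each), and Oplah, an enzyme of the glutathione cycle, had 62.7 ± 5.11 FPKM in HA IP, against 5.40 ± 0.342 FPKM in input. Closest to Plcb4, the largest fall, were Map3k13, Pnmal1 and Efcc1, at distances of 0.37, 0.37 and 0.42. The distance is set mainly by the fold change, since the groups differ far more than the libraries within them.

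None of the PLC genes outside the 10 rose in HA IP. Of 8 other PLC and PLC-like genes, 7 fell, none rose and 1, Plcl1, did not pass (-0.21, SE 0.11), with a median log2 fold change of -1.93 against 0.01 over all genes. Of all genes tested 42.1% rose and 41.2% fell. On the deposited scale, where all 8 PLC and PLC-like genes fell, 23.3% of all genes rose and 61.6% fell. The largest falls were those of Plcxd3 at -4.401 (SE 0.16) and Plcxd2 at -4.23 (SE 0.09), small proteins with only the X part of the catalytic domain. Plch2, an isoform of the calcium-sensitive eta class found in neurons, had 0.686 ± 0.152 FPKM in HA IP, against 9.45 ± 0.469 FPKM in input (SD, n = 4 each). Plcl2, a relative without catalytic activity, changed by -1.09 (SE 0.07).

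Upstream of the beta isoforms, the main Gq-class alpha subunit genes changed little, and in a direction that depended on the scaling. Gnaq had 46.4 ± 3.35 FPKM in HA IP, against 60.1 ± 5.29 FPKM in input, and Gna11 33.7 ± 0.875 FPKM in HA IP, against 47.5 ± 1.32 FPKM in input (SD, n = 4 each). They rose by 0.47 (SE 0.09) and 0.34 (SE 0.06) after TMM scaling and had -0.37 and -0.50 on the deposited scale, where both were lower in HA IP. Gna15, the subunit of blood cells, changed by -1.62 (SE 0.24), and Gna14 did not pass the filter.

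Of 30 genes for receptors that couple to Gq, the filter kept 28. Among them 7 rose, 14 fell and 7 did not pass (median log2 fold change -0.74), while the deposited scale gave 6 rises and 17 falls. Over all genes tested 42.1% rose and 41.2% fell, and on the deposited scale 23.3% and 61.6%. The deposited counts were thus near the background, while with TMM scaling rises were below it and falls above it. The neurotensin receptor gene Ntsr2 rose by 4.55 (SE 0.15), to 670 ± 112 FPKM in HA IP, against 51.2 ± 8.09 FPKM in input, and the endothelin receptor gene Ednrb by 2.64 (SE 0.15). The serotonin receptor genes Htr2a and Htr2c had the largest falls, -5.09 (SE 0.13) and -4.03 (SE 0.19). Grm5, the metabotropic glutamate receptor gene long studied in astrocytes, had 0.764 ± 0.214 FPKM in HA IP, against 12.5 ± 2.53 FPKM in input (SD, n = 4 each), a log2 fold change of -3.10 (SE 0.20).

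The 15 genes for receptor tyrosine kinases that bind gamma isoforms held 8 that rose, 6 that fell and 1 that did not pass (median 0.48); the deposited scale gave 7 rises and 8 falls. With TMM scaling these counts were not far from the background of 42.1% rises and 41.2% falls. On the deposited scale rises were above the background of 23.3% and falls below that of 61.6%. The fibroblast growth factor receptor gene Fgfr3 rose by 4.09 (SE 0.10) and Erbb2 by 3.37 (SE 0.18), while the neuregulin receptor gene Erbb4 changed by -4.93 (SE 0.16) and Pdgfra by -2.68 (SE 0.24). Of 18 small GTPases, exchange factors and immune signalling genes upstream of epsilon or gamma isoforms, 6 rose and 10 fell. Another 2 gave no call (median -0.76 for the list). With TMM scaling rises were thus below the background and falls above it. The deposited scale gave 3 rises and 13 falls, where all genes gave 23.3% and 61.6%. Rapgef3, the cAMP-activated exchange factor Epac1 that acts on Rap, rose by 3.77 (SE 0.10), to 20.2 ± 1.51 FPKM in HA IP, against 2.53 ± 0.221 FPKM in input (SD, n = 4 each), and the GTPase gene Rhoa by 2.13 (SE 0.06).

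The 18 genes that supply the substrate PIP2 held 7 rises, 9 falls and 2 without a call (median -0.29), against 2 rises and 16 falls on the deposited scale. With TMM scaling the counts were near the background of 42.1% rises and 41.2% falls. On the deposited scale rises were below the background of 23.3% and falls above that of 61.6%. Pitpnc1, a lipid transfer protein gene, rose by 1.67 (SE 0.11) and the lipid kinase gene Pi4k2b by 1.18 (SE 0.15). Pip5k1b, a kinase gene of the last step of PIP2 synthesis, changed by -3.68 (SE 0.18), and Cds1, of the first step of phosphatidylinositol resynthesis, by -2.84 (SE 0.13).

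Downstream, the IP3 receptor genes differed in direction. Itpr2 was the one that rose, by 3.51 (SE 0.09), and Itpr1 and Itpr3 changed by -4.05 (SE 0.08) and -1.11 (SE 0.14). Itpr3 was near the floor, with 0.0452 FPKM on average in HA IP, against 0.330 FPKM in input. The pseudocount shrinks its value. Of 12 genes of IP3 turnover, 7 rose, 4 fell and 1 gave no call (median 0.40), where the background was 42.1% rises and 41.2% falls. The deposited scale gave 2 rises and 7 falls, where the background was 23.3% and 61.6%. The IP3 kinase genes went apart: Itpkb rose by 2.29 (SE 0.19), with 17.9 ± 5.58 FPKM in HA IP, against 6.29 ± 0.960 FPKM in input (SD, n = 4 each), and Itpka, the neuronal form, changed by -2.61 (SE 0.07). Impa2, an inositol monophosphatase gene, rose by 1.66 (SE 0.22), and the lipid phosphatase gene Inpp4a changed by -2.24 (SE 0.10).

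For the genes that use diacylglycerol, counts are set beside those of all genes tested. Of these, 42.1% rose and 41.2% fell with TMM scaling, and 23.3% rose and 61.6% fell on the deposited scale. Of 12 diacylglycerol kinase, diacylglycerol lipase and monoacylglycerol lipase genes, 3 rose and 9 fell (median -1.24; 2 and 9 on the deposited scale). Mgll, the lipase gene of the last step of 2-arachidonoylglycerol breakdown, had 149 ± 13.02 FPKM in HA IP, against 23.3 ± 2.09 FPKM in input (SD, n = 4 each), a log2 fold change of 3.505 (SE 0.09), and the kinase gene Dgka rose by 1.32 (SE 0.09). Dgkh and Dgkg changed by -3.47 (SE 0.14) and -3.22 (SE 0.13). Of 17 diacylglycerol effectors, 4 rose and 13 fell (median -2.29; 3 and 13 on the deposited scale). Among the protein kinase C and D genes, Prkd1 rose by 3.89 (SE 0.09) and Prkcd by 2.40 (SE 0.22). Prkd3 and Prkd2 rose too, by 2.06 (SE 0.11) and 0.69 (SE 0.14). Prkca, Prkcb, Prkce, Prkch and Prkcq fell, from -1.68 (SE 0.16) for Prkch to -2.80 (SE 0.08) for Prkcb. Chn2, which encodes a Rac-inactivating protein with a diacylglycerol-binding domain, had the largest fall, -3.50 (SE 0.15).

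**Figure D5:**
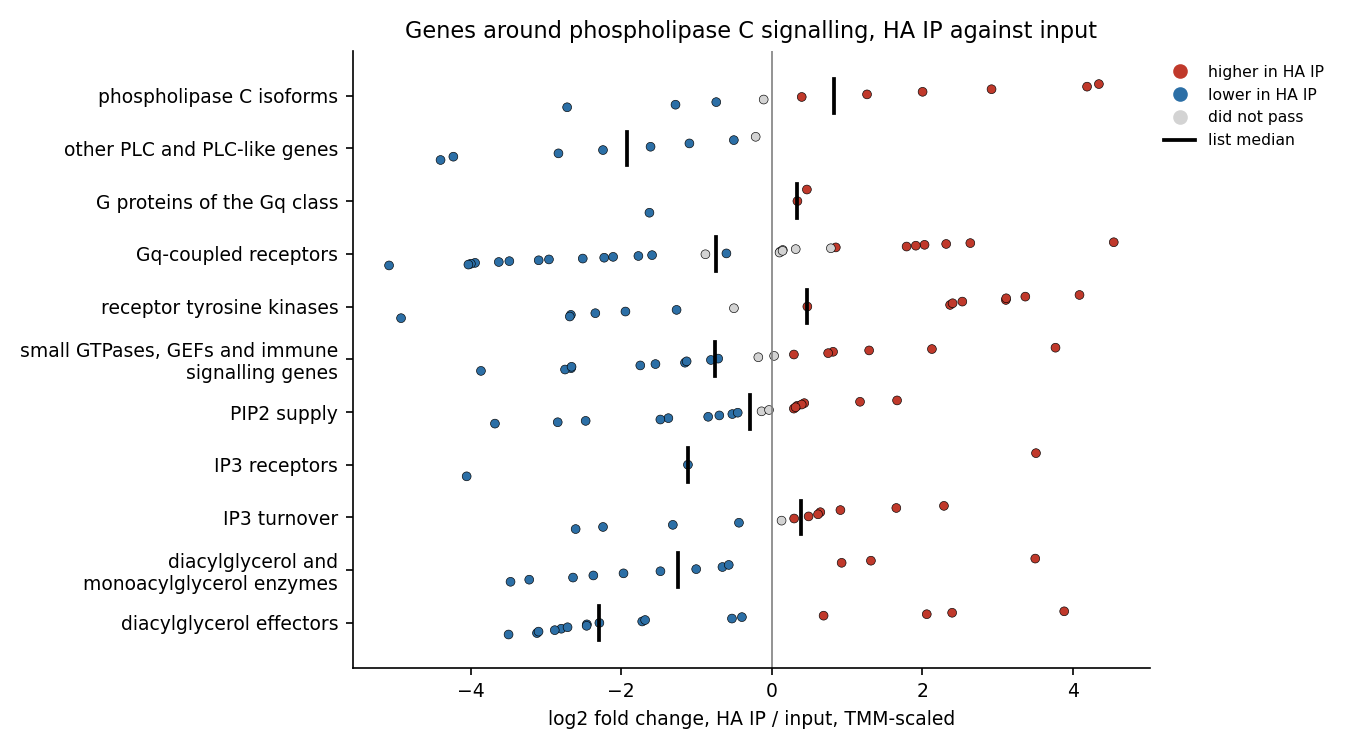
Log2 fold change of HA IP over input after TMM scaling, 1 point per tested gene, for the 10 isoforms (top row) and the genes around them in order from other PLC genes to diacylglycerol effectors. Red points were higher, blue points lower and grey points did not pass the threshold, and the black bar is the list median, which is 0.83 for the isoforms, -1.93 for the other PLC genes and -2.29 for the effectors.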

How the data were processed

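RNA-seq libraries of HA IP and input RNA from 4 animals were analysed. Per the labels' protocols, libraries were paired-end and stranded, made from 100 ng of RNA after mRNA enrichment. Tools named in the submitters' processing notes are bcl2fastq 2.17, STAR and HTSeq, with mm10 as the build. No release of STAR or HTSeq, gene annotation or strandedness of counting is stated there. The deposited files name no unit. Values were read as FPKM made by the authors, because a single whole length per gene and a single total per library turned all 142235 deposited values above 0 into whole fragments, to within 0.001. The length was searched for each gene, so a gene with few values above 0 could hardly fail this check. In simulated data 97.8% of genes were recovered exactly, and 99.8% of those with at least 100 fragments.

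FPKM were divided by TMM factors (0.3 of M-values and 0.05 of A-values trimmed at either end, unweighted, own code). limma 3.58.1 in R 4.3.3, with an intensity trend, compared HA IP with input on log2(FPKM + 0.1) over all 8 libraries with no covariate. P-values were two-sided, with Benjamini-Hochberg adjustment across 15605 genes. A gene was tested if at least 4 libraries had 0.246 CPM or more, which is 10 fragments at the median library size, and all libraries together at least 15 fragments. Both steps were first tested on simulated data. Deviations from the group means correlated at 0.22 to 0.40 in the 4 same-animal pairs, and never above 0.11 otherwise; since a number marks an animal, the libraries are paired. Alternatives were a fit with animal as a block, other scalings, pseudocounts and filters, and fits without single libraries or animals.

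The isoforms and lists were chosen with earlier results of these data known. By rule the text names the isoforms, the 2 largest rises and the 2 largest falls past the threshold in each pathway list, Gnaq, Gna11, Grm5, the IP3 receptor genes, and the 3 genes closest in pattern to the isoform with the largest rise and to that with the largest fall. One gene that this rule names is not reported here. All other genes, such as Plch2, Plcl1, Plcl2, Trem2, Btk, Syk, single cell type markers and overlapping genes, were named after their values were seen. A planned comparison of protein sequences was not made.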

Additional observations from a re-analysis of the deposited data

Results flagged for a closer look

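In 2 of the 20 sets of 4 values (10 isoforms in HA IP and in input), 1 library lay far from the others, by a gap above Dixon's 95% critical value for 4 values; about 1 set in 20 is expected to do so by chance. Both were the HA IP library of animal 581. For Plcd3 it was the highest, at 6.33 FPKM against 2.07 to 2.39 FPKM in the other HA IP libraries, a gap of 0.926 of the range. For Plcb1 it was the lowest, at 5.54 FPKM against 7.97 to 8.23 FPKM, a gap of 0.906 of the range.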

How the results depend on the processing

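Each isoform was refitted under 20 alternatives, 12 of which left out 1 animal or 1 library. For the isoforms other than Plcd3, 179 of 180 fits kept the direction and the side of the threshold. The exception was Plcg1 on the deposited scale, at -0.43. Plcd3 was -0.92 on that scale (limma, adjusted p = 0.019). When animals or libraries were left out it ran from -0.48 to 0.05, above 0 without animal 580 (0.05) or 595 (0.03) or without the HA IP library of 580 (0.03) or 595 (0.054), and it passed the threshold only without animal 581 (-0.48) or its HA IP library (-0.47). Without TMM scaling 3643 genes came out higher in HA IP and 5 isoforms lower, since the scaling shifts all ratios. With animal as a block, 6717 genes were higher and 6596 lower, against 6565 and 6427 without the block, and no isoform changed its call. The value of Plcb2 moved most with the pseudocount, from -2.29 with 0.01 to -0.26 with 1, and its HA IP level rests on at most 16 fragments per library.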
